A study of Mus musculus with 3 samples.

Results

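Acyl-CoA synthetases join a fatty acid to coenzyme A, and 9 of their genes were examined in mouse kidney: the medium-chain genes *Acsm1*, *Acsm2*, *Acsm3* and *Acsm5*, the acetyl-CoA synthetase genes *Acss1* and *Acss2*, the long-chain genes *Acsl1* and *Acsl4*, and *Slc27a2*. The members were every probe set whose platform annotation gave exactly 1 symbol, that of one of these genes. This rule found 17 probe sets of 8 genes, out of 45037 non-control probe sets and 18193 named genes on the array. No probe set carried the name *Acsl1* in the annotation used here, and *Acsl1* was not analysed here. The genes were chosen from signals of these same arrays, so their values are given as a description, with no test.

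Kidney RNA came from 2 cardio-renal syndrome samples and from 1 uninephrectomy-alone sample, each hybridised to 1 array, all from male C57BL/6J mice aged 16 weeks. In the cardio-renal syndrome mice the abdominal aorta was constricted below the branching of the renal arteries and 1 kidney was removed 2 weeks later. The uninephrectomy-alone mice lost 1 kidney, and in both groups the kidney left in place was removed 6 weeks after the nephrectomy. The design text names sham operations, but the labels do not say whether the uninephrectomy-alone mice had a sham operation at the time of banding. No array of banding alone or of an unoperated kidney was analysed here, and whether each array held the RNA of a single mouse is not stated in the labels. All values are MAS5 signals, a brightness per probe set on a linear scale with each array scaled to the same trimmed mean. Differences are on the log2(signal + 28.8) scale, cardio-renal minus uninephrectomy unless another pair is named, and the added 28.8 understates differences of dim probe sets.

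An acyl-CoA synthetase spends ATP to make the thioester that every later step of fatty acid metabolism needs. The enzymes are sorted by the chain they prefer: the Acss enzymes activate acetate, the Acsm enzymes medium chains and, in the mitochondrion, aromatic acids bound for glycine conjugation, the Acsl enzymes long chains, and FATP2, the product of *Slc27a2*, very long chains. The proximal tubule draws most of its energy from fatty acid oxidation, and is rich in these enzymes.

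The kidney label was checked against nephron markers. All 14 proximal tubule markers passed the filter on low values (a mean log2 value of at least 7.01, the median of all probe sets), among them *Lrp2*, the endocytic receptor megalin, with signals of 13432 and 14846 in the cardio-renal arrays and 13585 in the uninephrectomy array. The summed signal of this list was 181078 and 202994 in cardio-renal arrays 1 and 2, against 196064 in the uninephrectomy array. *Lrp2* moved little in array 1, at -0.02, where the list ran from -0.42 in *Kap* to 0.55 in *Slc22a8*. Of the 14 markers, 10 fell below their uninephrectomy signal in array 1 and 4 in array 2. The median differences were -0.15 and 0.05. Quantile normalization, which gives all arrays the same distribution, left 6 below in array 1 and 6 in array 2. The medians were then 0.0013 and 0.02. The 4 thick ascending limb markers summed to 51195 and 53161, against 53012, and the 7 measured distal tubule and collecting duct markers to 37208 and 38549, against 39160.5. In bulk tissue, fewer cells of a type and less RNA per cell cannot be told apart. Array 1 stood apart from the other arrays in its brightest signals. Of the 178 probe sets with a mean log2 value of 14 or more, the median difference was -0.19 in array 1 and 0.03 in array 2, whereas over all 22519 kept probe sets it was 0.02 and -0.0061.

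**Figure D1:**
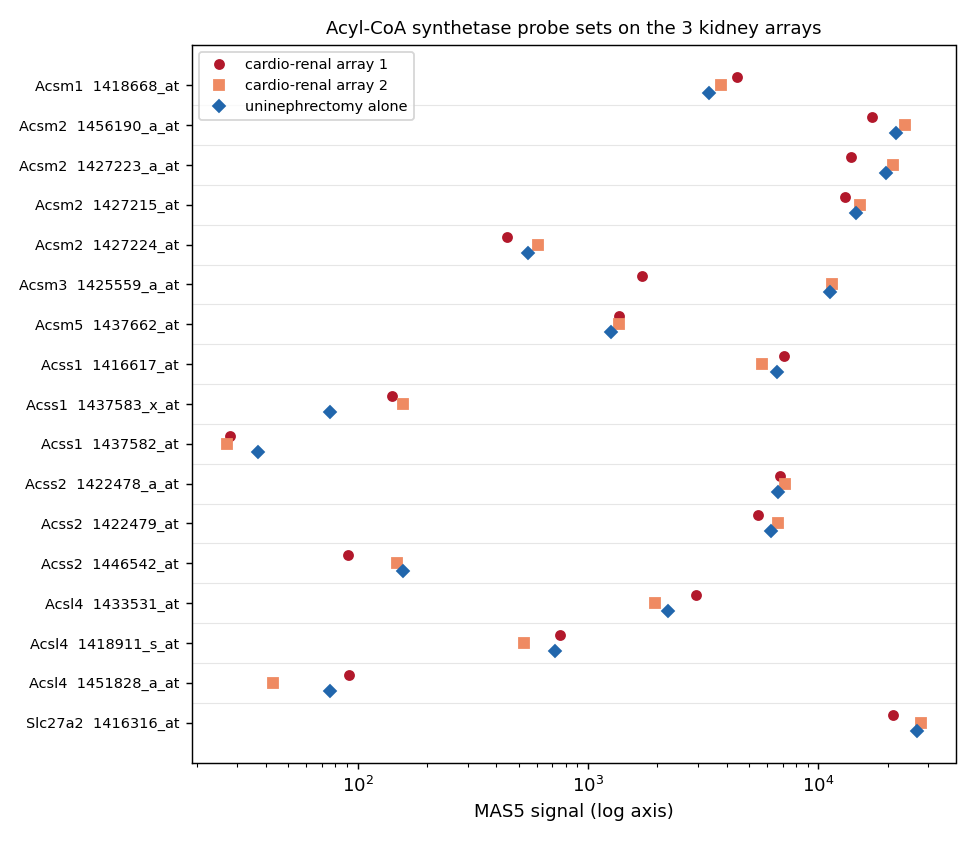
MAS5 signals (log axis) of the 17 acyl-CoA synthetase probe sets, 1 row each, with a circle for cardio-renal array 1, a square for cardio-renal array 2 and a diamond for the uninephrectomy array. The circle of *Acsm3*, at 1721, lies far left of its square at 11485 and its diamond at 11234, and no other kept row is spread as widely.

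*Acsm3*, a mitochondrial medium-chain enzyme known from the rat as the SA gene of hypertensive strains, was the member that differed most between arrays. Its 1 probe set had signals of 1721 and 11485 in cardio-renal arrays 1 and 2, against 11234 in the uninephrectomy array. Array 1 alone was low, and array 2 lay within 1.02-fold of the uninephrectomy array. The difference was -2.69 in array 1 and 0.03 in array 2, a mean of -1.33 ± 1.92 (SD, n = 2), so the spread within the cardio-renal group exceeded the mean difference. On the linear scale array 1 was 6.53-fold lower than the uninephrectomy array and 6.67-fold lower than array 2. Among 11146 genes, each taken by its brightest probe set, 6 had a difference in array 1 further below 0, so *Acsm3* ranked 7, and it ranked 6 for the difference between the cardio-renal arrays. Without array 1 its difference was 0.03, and without array 2 it was -2.69.

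*Acsm3* lies on chromosome 7 in a cluster with *Acsm5*, *Acsm2*, *Acsm1* and *Acsm4*. The windows around the annotated starts of 3 of these genes, from RefSeq for GRCm38.p6, are shown because the neighbours share a locus and differed in their signals. Each window holds 250 bases before the start and 50 after it and is on the plus strand, and for *Acsm2* it is the first of 2 annotated starts. Capitals mark a match, on either strand, to any of 6 short motifs: TATAAA for the TATA box, CCAAT for the CCAAT box, GGGCGG for the Sp1 box, TTCNNNGAA for STAT factors, AGAACA for the half-site of steroid receptors and AGGTCA for the half-site of other nuclear receptors.
Acsm3, chr7:119760673-119760972: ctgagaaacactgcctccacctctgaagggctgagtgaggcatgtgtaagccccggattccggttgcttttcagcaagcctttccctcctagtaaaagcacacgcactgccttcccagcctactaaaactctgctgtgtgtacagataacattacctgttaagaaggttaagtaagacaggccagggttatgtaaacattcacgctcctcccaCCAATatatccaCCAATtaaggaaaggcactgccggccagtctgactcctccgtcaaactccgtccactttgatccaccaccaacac
Acsm2, chr7:119554090-119554389: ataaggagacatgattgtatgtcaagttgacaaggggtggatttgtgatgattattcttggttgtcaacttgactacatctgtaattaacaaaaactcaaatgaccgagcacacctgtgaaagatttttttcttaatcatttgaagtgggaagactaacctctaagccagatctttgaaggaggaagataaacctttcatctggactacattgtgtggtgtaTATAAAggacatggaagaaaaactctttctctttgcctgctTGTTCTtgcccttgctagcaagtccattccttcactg
Acsm1, chr7:119617562-119617861: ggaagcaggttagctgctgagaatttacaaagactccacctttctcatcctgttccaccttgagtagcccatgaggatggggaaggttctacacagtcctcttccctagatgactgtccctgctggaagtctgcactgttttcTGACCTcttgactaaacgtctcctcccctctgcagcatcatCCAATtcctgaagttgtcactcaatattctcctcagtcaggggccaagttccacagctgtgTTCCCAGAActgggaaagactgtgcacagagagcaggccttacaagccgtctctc

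The *Acsm3* window held 2 CCAAT matches, beginning 37 and 25 bases before the start, and no match to the other 5 motifs. The *Acsm2* window held a TATAAA match 28 bases before its start and a match to AGAACA on the minus strand from base 14 of the transcript, while the window at its other start held none of the 6. In *Acsm1* an AGGTCA match on the minus strand, a CCAAT match and a TTCNNNGAA match, which reads the same on both strands, began 107, 66 and 5 bases before the start, and *Acsm5* held a CCAAT match on the minus strand. Such matches are common: of 32851 windows of this length, 37.4% held CCAAT, 35.7% GGGCGG, 19% AGAACA, 16.3% AGGTCA, 13.6% TATAAA and 8.3% TTCNNNGAA. A match describes the letters of the window only.

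The low *Acsm3* signal of array 1 was not found in the nearest measured gene on either side. *Eri2*, the adjoining gene, which encodes an exonuclease and whose annotated span overlaps the end of *Acsm3*, had signals of 201.8 and 268.6 in the cardio-renal arrays and 241.4 in the uninephrectomy array, differences of -0.23 and 0.14; its other kept probe set stood at 0.10 and -0.05. *Thumpd1*, the nearest measured gene on the other side, beyond the unmeasured *Ppp1ccb*, stood at 0.09 and -0.15. *Umod*, the thick ascending limb gene for uromodulin at the far end of the cluster, had signals of 26237 and 28669 in the cardio-renal arrays and 28134 in the uninephrectomy array. The other kept probe set of *Umod* had 24742 and 24376, against 23571, and was highest in array 1. Of the 15 protein-coding genes from *Gp2* to *Dnah3*, 12 had a named probe set. *Acsm4*, *Ppp1ccb* and *Dnah3* had none.

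**Figure D2:**
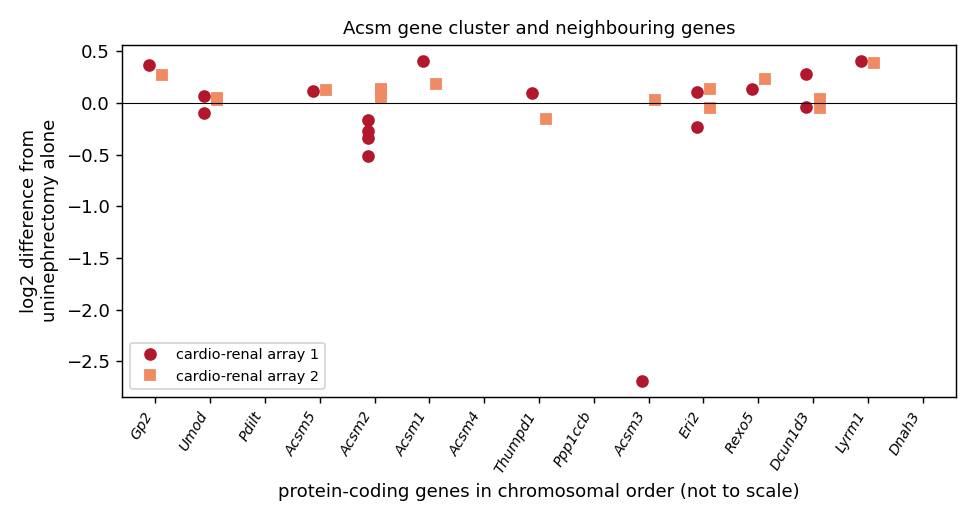
Log2 difference from the uninephrectomy array for each kept probe set of 15 protein-coding genes in chromosomal order, with circles for cardio-renal array 1 and squares for cardio-renal array 2; genes without a kept probe set are blank. The array 1 value of *Acsm3*, at -2.69, is the 1 point below -1, and the circles of *Acsm2* lie between -0.51 and -0.16.

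*Acsm2*, a proximal tubule enzyme that activates medium-chain and aromatic acids, has 4 probe sets, and all placed array 1 lowest and array 2 highest. The brightest, 1456190_a_at, had signals of 17067 and 23653 in the cardio-renal arrays, against 21617 in the uninephrectomy array. Probe set 1427223_a_at had 13787 and 21078, against 19657. Probe set 1427215_at had 13072 and 15202, against 14608. In these bright probe sets array 1 was the low one, and array 2 lay close to the uninephrectomy array. The dimmest, 1427224_at, had 447 and 605, against 547. Differences over the 4 ran between -0.51 and -0.16 in array 1 and between 0.06 and 0.14 in array 2, so the uninephrectomy array lay between the cardio-renal arrays each time. After quantile normalization, which gives all arrays the same distribution, they ran between -0.37 and -0.04 in array 1 and between 0.02 and 0.17 in array 2. For 1456190_a_at the array 1 difference was -0.16 after this step, against -0.34 as deposited.

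*Acsm1*, a medium-chain enzyme known to act on butyrate and other short acids, differed the other way. Its probe set had signals of 4444 and 3795 in the cardio-renal arrays, against 3335 in the uninephrectomy array, and both cardio-renal arrays were above it. The differences were 0.41 and 0.18, a mean of 0.30 ± 0.16 (SD, n = 2). *Acsm5*, another mitochondrial medium-chain enzyme, had signals of 1357 and 1369.6 in the cardio-renal arrays, against 1253 in the uninephrectomy array. The cardio-renal arrays were nearly equal there, and the mean difference was 0.12 ± 0.0093 (SD, n = 2). The 4 measured Acsm genes thus held 1 with a low signal in array 1 only, 1 slightly below in array 1, and 2 slightly above in both arrays.

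Acetate is activated by *Acss2* in the cytosol and nucleus and by *Acss1* in the mitochondrion. The brightest *Acss2* probe set, 1422478_a_at, had signals of 6793 and 7156 in the cardio-renal arrays and 6647 in the uninephrectomy array, a mean difference of 0.07 ± 0.05 (SD, n = 2). Probe set 1422479_at had 5455 and 6644, against 6249, and here the uninephrectomy array lay between the others. The dim 1446542_at had 90.8 and 148, against 156.8, differences of -0.63 and -0.07. The differences of the bright *Acss2* probe sets thus lay between -0.19 and 0.11, and its largest difference belonged to the dimmest.

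The bright *Acss1* probe set, 1416617_at, had signals of 7114 and 5702 in the cardio-renal arrays, against 6589.7 in the uninephrectomy array. Its differences were 0.11 and -0.21, of opposite sign. Probe set 1437583_x_at, whose name marks a sequence that may cross-hybridise, had 140.4 and 158, against 75.9, differences of 0.69 and 0.84. No other member had higher differences in either array, its signal was near the filter, and the other probe sets of *Acss1* did not share them. Its uninephrectomy value lay below the filter, so it was kept only through the cardio-renal arrays, where it was high. Probe set 1437582_at did not pass the filter and had 27.9 and 27, against 37.1.

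*Acsl4* encodes the long-chain enzyme that prefers arachidonate and is known for its part in ferroptosis. Its 3 probe sets all placed array 1 highest and array 2 lowest, with the uninephrectomy array between them. The brightest, 1433531_at, had signals of 2931 and 1961 in the cardio-renal arrays, against 2225 in the uninephrectomy array, differences of 0.39 and -0.18. Probe set 1418911_s_at had 756 and 528, against 718, differences of 0.07 and -0.42. This was the reverse of the order in *Acsm2*. The third, 1451828_a_at, had 91.9 and 43, against 76.2, and did not pass the filter. The mean difference of the brightest was 0.11 ± 0.41 (SD, n = 2), smaller than the spread within the cardio-renal group.

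*Slc27a2* encodes FATP2, a very-long-chain acyl-CoA synthetase that also carries fatty acids into proximal tubule cells. Its probe set had signals of 21129 and 27803 in the cardio-renal arrays, against 26711 in the uninephrectomy array. Array 1 was the lowest, with a difference of -0.34, and array 2 stood at 0.06, a mean of -0.14 ± 0.28 (SD, n = 2). After quantile normalization the differences were -0.16 and -0.0050, and the median of all probe sets this bright was -0.19 in array 1 on the deposited scale.

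Of the 17 probe sets, 15 passed the filter on low values, and each of the 8 genes kept at least 1. In array 1, 1 of the 15, that of *Acsm3*, was at least 2-fold below the uninephrectomy array on the offset log2 scale, where 0.528% of all kept probe sets were, and 0 were at least 2-fold above it (0.488% of all). In array 2, 0 were at least 2-fold lower (0.209% of all) and 0 at least 2-fold higher (0.266% of all). Between the cardio-renal arrays, *Acsm3* was the 1 member at least 2-fold lower in array 1 than in array 2 (0.506% of all), and 0 were at least 2-fold higher (0.466% of all). The kept probe sets of the other 7 genes ran between -0.63 and 0.69 in array 1 and between -0.42 and 0.84 in array 2. The -0.63 belonged to the dim *Acss2* probe set 1446542_at, and the 0.69 and 0.84 to the dim *Acss1* probe set 1437583_x_at. Nothing is read from these counts, since the members were chosen on the same signals.

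Without a threshold, both cardio-renal signals exceeded the uninephrectomy signal in 4 of the 15 (31.8% of all kept probe sets). Both were below it in 1 (29.7%), and they lay on opposite sides of it in 10 (38.5%). Among the 4 was *Acss1* 1437583_x_at, kept only through the cardio-renal arrays, where it was high. The 1 below was the dim *Acss2* 1446542_at, whose array 1 value lay below the filter. Array 1 was below the uninephrectomy array in 8 of the 15 (46.4% of all) and array 2 in 4 (51.4% of all). Array 1 was below array 2 in 11 of the 15 (44.9% of all), and below both other arrays in 8 (32% of all). The median over the 15 was -0.16 in array 1 and 0.09 in array 2, against 0.02 and -0.0061 over all kept probe sets. The 15 were brighter than most, with 3 at a mean log2 value of 14 or more, where 178 of all 22519 were. The array 1 median of all kept probe sets was -0.19 there and -0.09 from 13 to 14. Of the 15, 4 were probe sets of *Acsm2*. Either cardio-renal array was set against the same uninephrectomy array, so the differences share that array's own deviation. The fit across all kept probe sets with limma called 0 higher and 0 lower in the cardio-renal group at an adjusted p under 0.05 (0% of 22519 in each direction). At an unadjusted p under 0.05, limma's test gave 375 higher (1.67%) and 252 lower (1.12%).

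**Figure D3:**
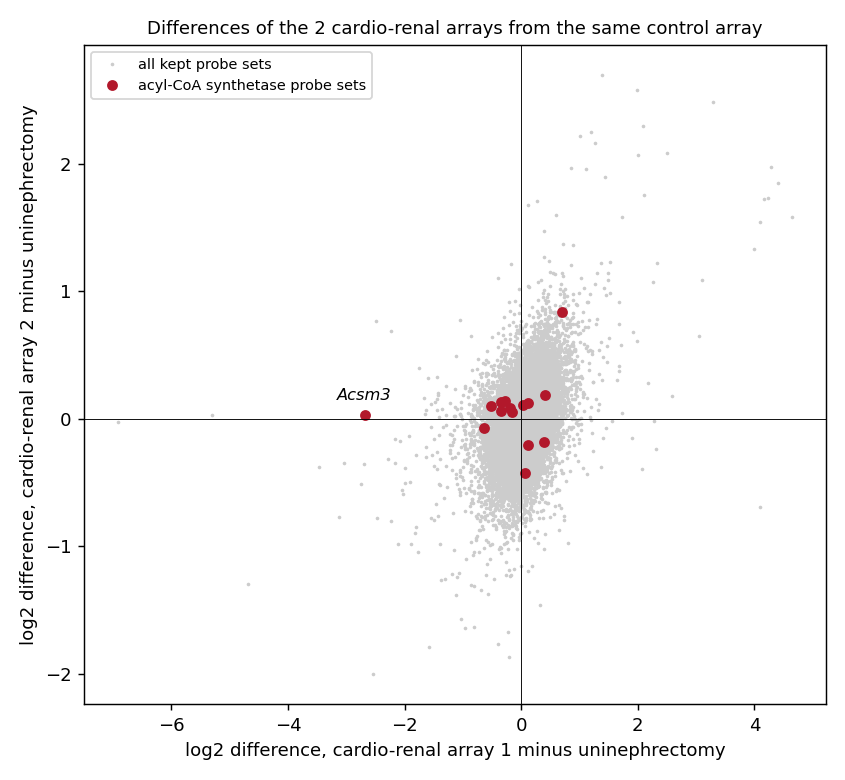
Log2 difference from the uninephrectomy array in cardio-renal array 1 (horizontal axis) and cardio-renal array 2 (vertical axis) for all 22519 kept probe sets in grey and the 15 kept acyl-CoA synthetase probe sets in red. *Acsm3* lies at -2.69 and 0.03, apart from the other members.

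The genes whose pair of differences lay nearest to that of *Acsm3* were, by Euclidean distance over the 2 differences among 11138 genes, *Cyp7b1*, *Slc22a7*, *Akr1c14*, *Cyp4a12a* and *Pzp*. *Cyp7b1*, an oxysterol hydroxylase, was nearest at a distance of 0.38, and *Pzp*, a protease inhibitor of the macroglobulin family, lay at 0.80. *Akr1c14*, a hydroxysteroid dehydrogenase, had signals of 1418 and 5823 in the cardio-renal arrays, against 6495 in the uninephrectomy array. *Pzp* had 366 and 2938, against 1816. All 5 were low in array 1, which follows from choosing them by nearness to *Acsm3*, and the likeness rests on 3 arrays.

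Genes with a known sex bias in the proximal tubule were low or high in array 1 together with *Acsm3*, and their part in its signal was not tested. Both lists were chosen with earlier results of these arrays known, so nothing is read from their counts. In array 1 all 9 measured genes of the male-biased list stood below the uninephrectomy signal (46.4% of all kept probe sets). By 2-fold or more, 6 did so (0.528% of all). In array 2, 4 stood below the uninephrectomy signal (51.4% of all), with 0 at 2-fold (0.209% of all). The list's median difference was -1.43 in array 1 and 0.08 in array 2, and its summed signal was 37570.2 and 93539 in the cardio-renal arrays, against 88223 in the uninephrectomy array. *Slco1a1*, an organic anion transporter, had signals of 22.5 and 6064 in the cardio-renal arrays, against 6161 in the uninephrectomy array, the lowest array 1 signal of the list. *Cyp7b1* had 2003 and 10266, against 13094, and *Cyp4a12a*, a fatty acid hydroxylase, 550.1 and 5518, against 3238. *Slc22a19*, an anion transporter gene, had 1073 and 2908, against 4119. *Hsd11b1*, which regenerates active glucocorticoid, had 2727 and 5391, against 6379. *Cyp7b1*, *Slc22a19* and *Hsd11b1* were thus lower in array 2 as well, by less than in array 1. Of the 6 genes in the female-biased list, 4 were at least 2-fold higher in array 1 (0.488% of all) and 1, *Slc22a7*, was at least 2-fold lower (0.528% of all). In array 2, 3 of the 6 were below the uninephrectomy signal (51.4% of all), 0 by 2-fold (0.209% of all). *Slc7a12*, 1 of the 6, was at least 2-fold higher there (0.266% of all). The summed signal of this list was 38839.8 and 24222 in the cardio-renal arrays, against 25255 in the uninephrectomy array. *Slc7a12*, an amino acid transporter gene, had 6011 and 695, against 213, high in both cardio-renal arrays and most so in array 1. *Cyp4a14*, a fatty acid hydroxylase, had 6832 and 3957, against 3036. *Slc22a7*, an organic anion transporter, had 460 and 3124, against 3985, and *Slc22a29*, an anion transporter gene, had 1329.6 and 377, against 499. With limma, 0 genes of either list passed the adjusted p in either direction, which follows from 0 calls among all kept probe sets.

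**Figure D4:**
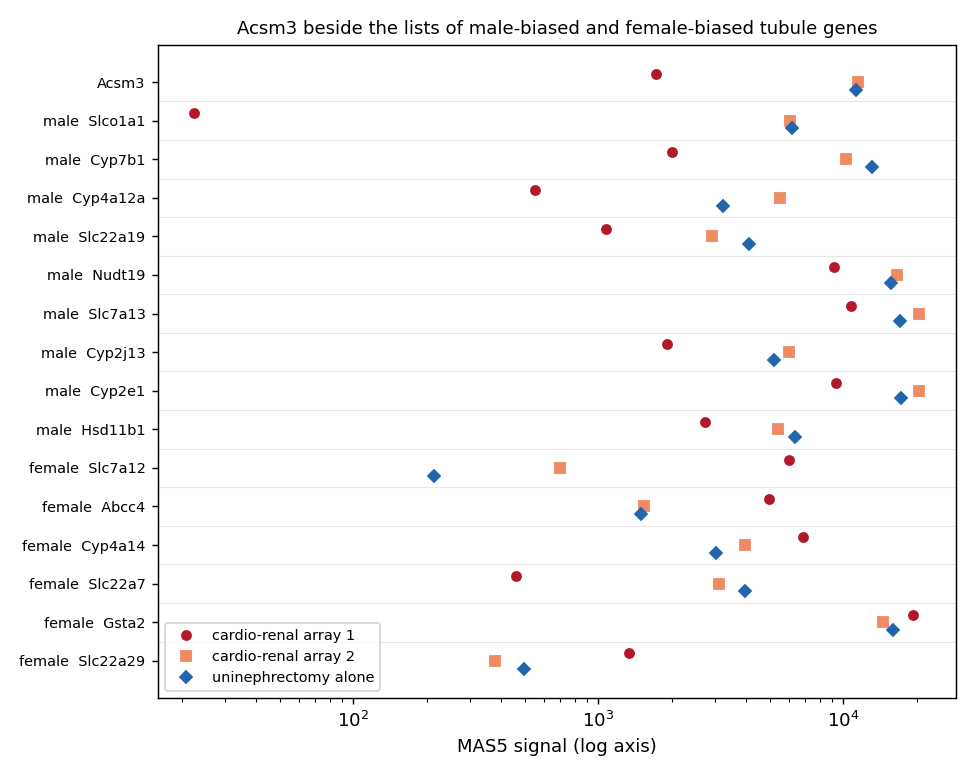
MAS5 signals (log axis) of *Acsm3* and of each measured gene of the male-biased and female-biased lists, with a circle for cardio-renal array 1, a square for cardio-renal array 2 and a diamond for the uninephrectomy array. Circles lie left of both other symbols for *Acsm3*, for all 9 male-biased genes and for *Slc22a7*, and right of them for the other 5 female-biased genes.

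Tissues outside the tubule that are rich in acyl-CoA synthetases were checked beside the members, and their part in the members' signals was not tested. The 6 measured adipocyte markers summed to 12763 and 10678 in the cardio-renal arrays, against 7706 in the uninephrectomy array, with *Car3*, a carbonic anhydrase, at 8259.95 and 6995, against 3702. Without *Car3* the sum was 4503 and 3683, against 4004, so array 2 then lay below the uninephrectomy array. *Fabp4*, a fatty acid binding protein, had 4226 and 3424, against 3829, and *Retn*, resistin, 136 and 105.4, against 77.9. *Adipoq*, the defining adipokine gene, had 101 and 129.9, against 88.6. *Retn* and *Adipoq* lay below the filter value in the uninephrectomy array and were kept only through the cardio-renal arrays. Nothing is read from the direction of these adipocyte genes. Heart muscle markers summed to 2024 and 1391, against 214. Each of the 3 kept genes was above its uninephrectomy signal in both. Among them *Myh6*, a myosin heavy chain, had 349 and 188, against 9.93, and *Actc1*, cardiac actin, 545 and 399.99, against 72.7. All 3 lay below the filter value in the uninephrectomy array and were kept only through the cardio-renal arrays, so nothing is read from their direction. The list's other measured genes did not pass the filter and were also above their uninephrectomy signals in both. The 5 measured hepatocyte markers summed to 20783 and 19679.9, against 17948, and 2 of the 4 kept genes were higher in both. *Alb*, albumin, had 775 and 338, against 217, and *Apob*, the apolipoprotein of liver lipoproteins, 7272 and 4849, against 4066. *Fgb*, a fibrinogen chain, was lower in both, with 162 and 136, against 195, and *Ttr*, transthyretin, had 12522 and 14321, against 13426. Adrenal cortex markers, of which 1 of 7 was kept, summed to 325 and 354, against 351, and the 8 macrophage markers to 6073 and 6609, against 7360.3.

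Other acyl-CoA synthetases on the array showed no difference of the size of *Acsm3*. Of 12 with a probe set, 6 were kept. Limma's test passed 0 of them higher and 0 lower, as it did among all kept probe sets, *Acsm3* included, so it does not separate them. *Acsl5*, the long-chain enzyme of the outer mitochondrial membrane, had signals of 2621 and 2514 in the cardio-renal arrays, against 2518 in the uninephrectomy array. *Aacs*, which activates acetoacetate in the cytosol, had 1409 and 1633, against 1588. *Acsl3*, a long-chain enzyme of lipid droplets, had 760.3 and 735, against 806, and was the 1 kept gene of the list lower in both. *Slc27a1*, a fatty acid transport protein, had 347 and 307, against 287, and was the 1 higher in both. *Acsf3*, which activates malonate, and *Slc27a4*, another transport protein, stood at -0.18 and 0.21 in array 1 and at 0.13 and -0.0072 in array 2. *Acsf2*, *Acsl6*, *Acsbg1*, *Acsbg2*, *Slc27a3* and *Slc27a5* did not pass the filter, and *Acsm4*, *Acss3* and *Slc27a6* had no named probe set.

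Of 13 kept genes that make or degrade coenzyme A, 10 were below the uninephrectomy array in array 1 (46.4% of all kept probe sets) and 4 in array 2 (51.4% of all), with medians of -0.20 and 0.06, and -0.20 and 0.07 after quantile normalization. Of these genes, 0 passed limma's test in either direction, as among all kept probe sets. *Pank1*, a pantothenate kinase that starts coenzyme A synthesis, had signals of 6723 and 12596 in the cardio-renal arrays, against 13371 in the uninephrectomy array. *Nudt19*, a coenzyme A diphosphohydrolase of kidney peroxisomes that is also in the male-biased list, had 9171 and 16566, against 15665. Both were low in array 1 only, at -0.99 and -0.77. *Coasy*, which carries out the last steps of the synthesis, stood at -0.20 and -0.12. *Ppcdc*, a decarboxylase of the same route, stood at 0.24 and 0.14. *Vnn3*, a pantetheinase gene with signals of 30.8 and 70.6, against 91.4, did not pass the filter.

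Fatty acyl-CoA is used by beta-oxidation in the mitochondrion and peroxisome. Of the 19 kept genes of beta-oxidation, 14 were lower in array 1 (46.4% of all kept probe sets) and 5 in array 2 (51.4% of all). The medians were -0.14 and 0.10. Opposite signs in the cardio-renal arrays were seen in 13 (38.5% of all), 3 were higher in both (31.8%) and 3 lower in both (29.7%). Over all kept probe sets the array 1 median was -0.03 at a mean log2 value from 12 to 13, -0.09 from 13 to 14 and -0.19 from 14 up. *Ehhadh*, the peroxisomal bifunctional enzyme, had signals of 8801 and 12288 in the cardio-renal arrays, against 11877 in the uninephrectomy array. *Hsd17b4*, its counterpart for branched chains, had 8189.8 and 7507, against 6392, above the uninephrectomy array in both. *Echs1*, the short-chain enoyl-CoA hydratase, and *Eci1*, an enoyl-CoA isomerase, were also above it in both, at 0.19 and 0.19 and at 0.12 and 0.28. *Acads*, the short-chain dehydrogenase, and *Decr1*, a dienoyl-CoA reductase, were below it in array 1 only, at -0.35 and -0.33. In the carnitine shuttle 6 of 6 kept genes were lower in array 1 (46.4% of all) and 1 in array 2 (51.4% of all), with medians of -0.18 and 0.08. *Crot*, which hands medium chains from the peroxisome to carnitine, had 5696 and 10359, against 10244, and *Cpt2*, the inner membrane transferase, had 3087 and 4744, against 3675. *Cpt1a*, the outer membrane transferase, had 7526 and 6595, against 8006, the 1 kept gene of the shuttle lower in both. *Cpt1c* and *Bbox1* did not pass the filter. After quantile normalization the beta-oxidation medians were -0.07 and 0.07, and those of the carnitine shuttle -0.19 and 0.07. Limma's test passed 0 genes of either list in either direction, as among all kept probe sets.

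The list for glycine conjugation, which takes up the aromatic acyl-CoA that Acsm enzymes make, had 3 kept genes. All were lower in array 1 (46.4% of all kept probe sets) and 0 lower in array 2 (51.4% of all). *Glyat*, the glycine N-acyltransferase, had signals of 13551 and 16597 in the cardio-renal arrays, against 15588 in the uninephrectomy array. *Keg1*, a related gene, had 19459 and 23593, against 22018. *Bphl*, a hydrolase rather than an acyltransferase, had 6499 and 7686, against 7681. The array 1 difference of *Keg1* was -0.18, beside a median of -0.19 for all probe sets with a mean log2 value of 14 or more, and that of *Glyat* was -0.20, beside a median of -0.09 for those from 13 to 14. The list's median went to -0.08 after quantile normalization, against -0.20 before.

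The thioesterases, which undo the work of the synthetases, had medians of -0.12 and 0.07. Of their 12 kept genes, 7 were lower in array 1 (46.4% of all kept probe sets) and 2 in array 2 (51.4% of all). *Acot12*, a cytosolic acetyl-CoA hydrolase, had signals of 1779 and 3149 in the cardio-renal arrays, against 2799.7 in the uninephrectomy array, low in array 1 only. *Acot1*, a cytosolic long-chain thioesterase, had 2433 and 3578, against 2972, and *Acot3*, a peroxisomal one, 1242 and 1009, against 924. *Them4* and *Acot9*, both mitochondrial thioesterases, were lower in both arrays, at -0.24 and -0.27 and at -0.45 and -0.11. *Them5* did not pass the filter. The acyl-CoA binding proteins had medians of -0.02 and 0.02 over 6 kept genes, with the array 1 sign turned to 0.03 after quantile normalization, and *Dbi*, the founding member of the family, had 25325 and 25751, against 26653. *Acbd5*, a peroxisomal membrane protein, stood at 0.06 in both arrays, *Acbd4* at -0.04 and 0.15 and *Acbd6* at -0.01 and 0.09, and *Acbd7* did not pass the filter. Limma's test passed 0 genes of these lists in either direction, as among all kept probe sets.

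For the 12 kept genes that use acetyl-CoA and propionyl-CoA, the median was -0.0053 in array 1 and 0.0065 in array 2, and both signs turned after quantile normalization, to 0.04 and -0.02. *Fasn*, fatty acid synthase, had signals of 793 and 770.3 in the cardio-renal arrays, against 1136 in the uninephrectomy array, a mean difference of -0.52 ± 0.03 (SD, n = 2). *Acaca*, the acetyl-CoA carboxylase that feeds it, had 308 and 355, against 416. Either cardio-renal signal was below the uninephrectomy signal for each gene. Both genes were named for a large difference of the same sign in both arrays, so nothing is read from this likeness. *Mmut*, the methylmalonyl-CoA mutase, stood at 0.17 and 0.19. *Acat1*, the mitochondrial acetoacetyl-CoA thiolase, stood at -0.31 and 0.14, and *Acacb*, the carboxylase of the mitochondrial surface, at 0.37 and -0.19. In the glycerolipid and arachidonate list, with medians of 0.05 and -0.04 over 16 kept genes, *Scd1*, the stearoyl-CoA desaturase, had 7918 and 5479, against 4654, and *Fads1*, the desaturase that forms arachidonate, 1968 and 1786, against 2307. *Gpat3*, a glycerol-phosphate acyltransferase, had 712 and 437, against 484. *Ptgs2*, cyclooxygenase-2, did not pass the filter. Of these 2 lists, 0 genes passed limma's test in either direction, as among all kept probe sets.

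**Figure D5:**
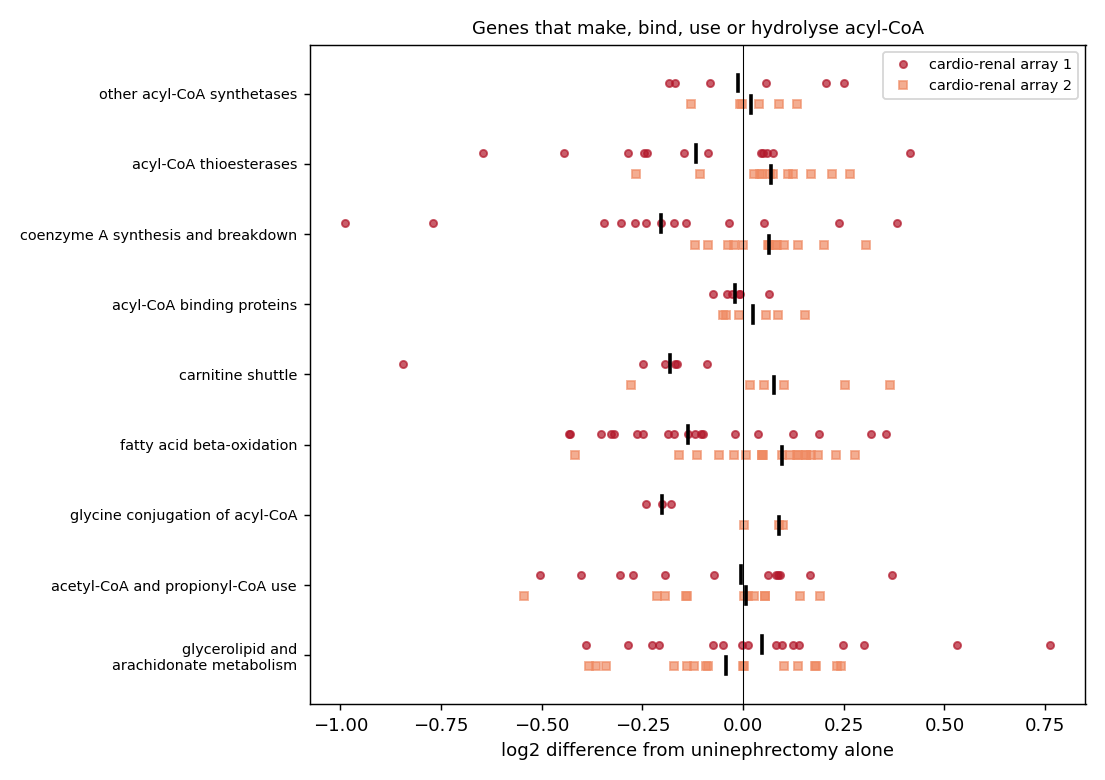
Log2 difference from the uninephrectomy array (horizontal axis) for each kept gene of 9 acyl-CoA lists, with circles for cardio-renal array 1, squares for cardio-renal array 2 and black bars for the medians. The array 1 medians of coenzyme A synthesis and breakdown, the carnitine shuttle and glycine conjugation lie between -0.20 and -0.18, and their array 2 medians between 0.06 and 0.09.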

How the data were processed

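The authors deposited intensities made with MAS5, per the submitters' processing notes, with a version not given in the sources used here; each is the signal of a probe set on a single-colour array. Each deposited array had a 2% trimmed mean of 500 (500.003), so nothing was rescaled. Per the labels' protocols, 250 ng of total RNA was labelled by 3' in vitro transcription. The number of arrays limits the precision.

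Of 45101 probe sets, 64 were controls, 34945 had 1 symbol, 932 several and 9160 none here; symbols were updated through a RefSeq table for GRCm38.p6. The offset 28.8 is the median of the arrays' 25th percentiles. Probe sets were kept at a mean log2 value of 7.01, the median of all. The fit used limma 3.58.1 in R 4.3.3 (lmFit, eBayes with trend, Benjamini-Hochberg) over 3 arrays, with 1 residual degree of freedom and the lone uninephrectomy array assumed to vary like the others; its p-values reflect the spread among these samples alone, which may be technical. On simulated data with the same noise for every probe set and array, the fit was checked for the size of the estimated change. Real noise may differ between probe sets, so this does not check the fit's calls. The members and lists (9 of pathways, 10 of markers) were chosen with earlier results of these data known. A list gene is represented by its brightest probe set, and the genes named in the pathway and sex-biased lists are those with the widest range (up to 3) and the largest difference of the same sign in both arrays (up to 3). The other marker lists are given by sums, and that of the proximal tubule by counts and medians as well. The examples named from these lists were chosen after their values were seen. Alternatives covered the offset, filter, normalization, probe set choice and variance model. Brightness strata and per-array quantile values were added after the data were seen.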

Additional observations from a re-analysis of the deposited data

How the results depend on the processing

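Limma's counts stayed at 0 higher and 0 lower in every alternative fit except that without shared-sequence probe sets, where 3 were higher (*Actc1*, *Myh6* and the unnamed 1460710_at, limma adjusted p = 0.0453 for each), none of them a member. *Actc1* and *Myh6* lay below the filter value in the uninephrectomy array and were kept only through the cardio-renal arrays, where they were high. Nothing is read from these 3 calls. Leaving out a cardio-renal array leaves no residual degree of freedom, so that fit was not run. No paired analysis was possible because there was 1 uninephrectomy array and the labels carry no replicate numbers, those used here being given in accession order. Counts of probe sets at least 2-fold from the uninephrectomy array, with 110 higher and 119 lower in array 1 and 60 higher and 47 lower in array 2, moved with the filter, the offset and the choice of probe sets. They were 53, 69, 24 and 22 with 1 probe set per gene, 579, 434, 643 and 405 with no filter, and 42, 69, 13 and 14 in the upper quartile of signals. Without shared-sequence probe sets, array 1 had 73 higher and 76 lower. With an offset of 64, array 2 had 39 higher and 31 lower. Array 1 against array 2 had 105 higher and 114 lower, against 45 and 66 with 1 probe set per gene, 537 and 618 with no filter, and 44 and 68 in the upper quartile; without shared-sequence probe sets 64 were higher. Offsets of 16 and 64 and quantile normalization changed the sign of 0 of the 17 mean member differences. Leaving out array 1 changed the sign of 8, and leaving out array 2 of 3, since the uninephrectomy array lay between the cardio-renal arrays. Of 9 list medians, quantile normalization turned 2 in array 1 and 1 in array 2. Dim probe sets carry the most noise, and the values used here hold no detection calls.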

Other observations

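1 probe set annotated to both *Acss2* and *Gssos2* was outside the members and failed the filter, with signals of 7.57 and 29.9 in the cardio-renal arrays, against 7.5 in the uninephrectomy array.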
